A study of Mus musculus with 12 samples.

Results

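Satellite glia wrap the cell bodies of sensory neurons, and 8 genes that mark these cells or carry out their work (Apoe, Fabp7, Glul, Slc1a3, Gja1, Entpd2, Sox10 and Cdh19) were followed by symbol through 12 RNA-seq libraries. All 8 were found among the 22609 genes listed, and all 8 passed the filter on low counts in each comparison. The libraries came from dorsal root ganglia (DRG), which hold the sensory neurons of the body, and trigeminal ganglia (TG), which hold those of the face. Each sex gave 3 libraries per ganglion, all from naive wild-type mice labelled as C57BL and as 3 to 4 months old. The methods of the study name the strain C57BL/6J, give a younger age in weeks, state that the females were in the estrous phase and that the DRG were lumbar. The cells were dissociated with enzymes and passed over a Percoll gradient to favour neurons before sequencing, so the glial transcripts described here were read in a neuronal fraction. Whether each library pooled several animals, and whether a TG and a DRG library shared animals, is not given in the sources used here, so p-values measure only the spread between these libraries, which may be technical. The comparisons asked whether the glial genes differ between TG and DRG or between the sexes, and whether they move together from library to library.

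As background, satellite glia arise from the neural crest and form a closed sheath around each sensory neuron body. They take up glutamate and turn it into glutamine, pass small molecules through gap junctions, break down ATP that neurons release and supply lipids. Sox10 is the transcription factor that marks the glial lineage, and proteins of its family bind short DNA elements close to ACAAAG.

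Apoe and Fabp7 formed the pair with the highest correlation, and Entpd2 moved with Sox10, so the promoter windows of these 3 genes are shown, with matches to the SOX elements ACAAAG and ACAATG on either strand in capitals. The windows were taken from RefSeq on build GRCm38.p6, run 5′ to 3′ on the strand of the gene and span 250 bases before to 50 bases after the start of the transcript. The Apoe window lies at chr7:19699139-19699438 on the minus strand, the Fabp7 window at chr10:57784673-57784972 on the plus strand and the Entpd2 window at chr2:25395624-25395923 on the plus strand.
Apoe: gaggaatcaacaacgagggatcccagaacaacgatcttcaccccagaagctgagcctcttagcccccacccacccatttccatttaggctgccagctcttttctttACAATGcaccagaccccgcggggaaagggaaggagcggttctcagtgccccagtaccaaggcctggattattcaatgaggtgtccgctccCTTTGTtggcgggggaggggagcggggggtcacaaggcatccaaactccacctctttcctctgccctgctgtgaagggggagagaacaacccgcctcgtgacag
Fabp7: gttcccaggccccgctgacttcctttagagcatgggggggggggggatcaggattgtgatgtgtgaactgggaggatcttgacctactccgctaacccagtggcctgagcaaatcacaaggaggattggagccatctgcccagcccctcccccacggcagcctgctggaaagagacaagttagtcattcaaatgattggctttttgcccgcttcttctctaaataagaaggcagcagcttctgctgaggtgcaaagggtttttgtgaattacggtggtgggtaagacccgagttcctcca
Entpd2: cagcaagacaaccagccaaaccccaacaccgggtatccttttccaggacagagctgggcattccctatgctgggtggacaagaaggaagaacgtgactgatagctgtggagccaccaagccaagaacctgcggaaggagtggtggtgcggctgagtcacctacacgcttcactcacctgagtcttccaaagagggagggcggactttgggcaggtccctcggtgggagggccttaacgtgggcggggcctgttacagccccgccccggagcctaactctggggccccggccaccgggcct
The Apoe window held ACAATG beginning 144 bases before the start and CTTTGT, which is ACAAAG on the other strand, beginning 54 bases before it. The Fabp7 and Entpd2 windows held neither element. Apoe has 3 windows, of which the first is shown, and the rest held neither element. The 6 members with a window (Sox10 and Cdh19 have none) have 8 windows, of which 1 held a match. Of all 32851 promoter windows, 28.6% held at least 1. A match describes letters and is not a binding site.

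Library facts that touch the results were as follows. The reads in genes numbered between 7511765 (female DRG 1) and 15396090 (male TG 2), and 3 reads corresponded to at most 0.357 CPM (counts scaled to library size, with TMM factors), far below the lowest member value. The members together took 0.232% of the reads in genes in female DRG 3 (95% Wilson interval 0.229 to 0.235%) and 0.709% in female TG 2 (0.704 to 0.714%), where the intervals cover counting error only. The libraries numbered 3 stood apart in every group. Their counts differed from libraries 1 and 2 by a chi-square per degree of freedom of 51.5 to 105.5, against 13.5 to 31.2 between libraries 1 and 2, and 38.4 to 41.2% of their alignments hit several places, against 42.9 to 49.5%. The labelled neuronal fraction was checked by 14 sensory neuron markers, none of which was absent, with a summed level of 7837 to 14883 CPM. Genes of other cells were present as well. The 12 myelinating Schwann cell genes summed to 2206 to 3352 CPM, the 8 fibroblast genes to 629 to 2301 CPM and the 11 macrophage genes to 193 to 638 CPM, while 4 hemoglobin genes had at most 3 reads in any library.

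The 8 genes spanned a wide range of levels. On the RPKM scale, which is CPM per kilobase of exon and allows genes to be compared, Apoe stood highest with a mean of 1383 ± 479 (SD, n = 12), the 4th highest of 14612 genes. Fabp7 followed with 561 ± 208, and Glul with 226 ± 45.2. Each of these 3 exceeded the next gene in 12 of 12 libraries. Cdh19 (43.3 ± 11.7) and Gja1 (38.7 ± 6.67) lay next, and Cdh19 was the higher in 8 of 12 libraries, so that these neighbours did not differ beyond their spread. The same held for Sox10 (15.4 ± 8.03) and Entpd2 (12.9 ± 6.13), where Sox10 was the higher in 6 of 12. Slc1a3 was lowest at 4.99 ± 1.20, and 46.3% of the 14612 genes lay below it. This place rests on its exon length of 8537 bases. In CPM, Slc1a3 averaged 42.6, against 41.9 for Sox10 and 27.4 for Entpd2. The neuronal fraction thus held glial transcripts from among the highest in the library down to the middle of the range. Glul may be undercounted, since 32.5% of its exon bases were also found elsewhere in the genome and reads that align to several places were not counted. Its exons also overlap 5830403L16Rik on the opposite strand, and since the strand setting of the counting is not given, reads of these genes may not have been told apart. The exons of Entpd2 and Npdc1 overlap on the same strand. Reads there may be missing from the Entpd2 count, since ambiguous reads were set apart in the counting.

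**Figure D1:**
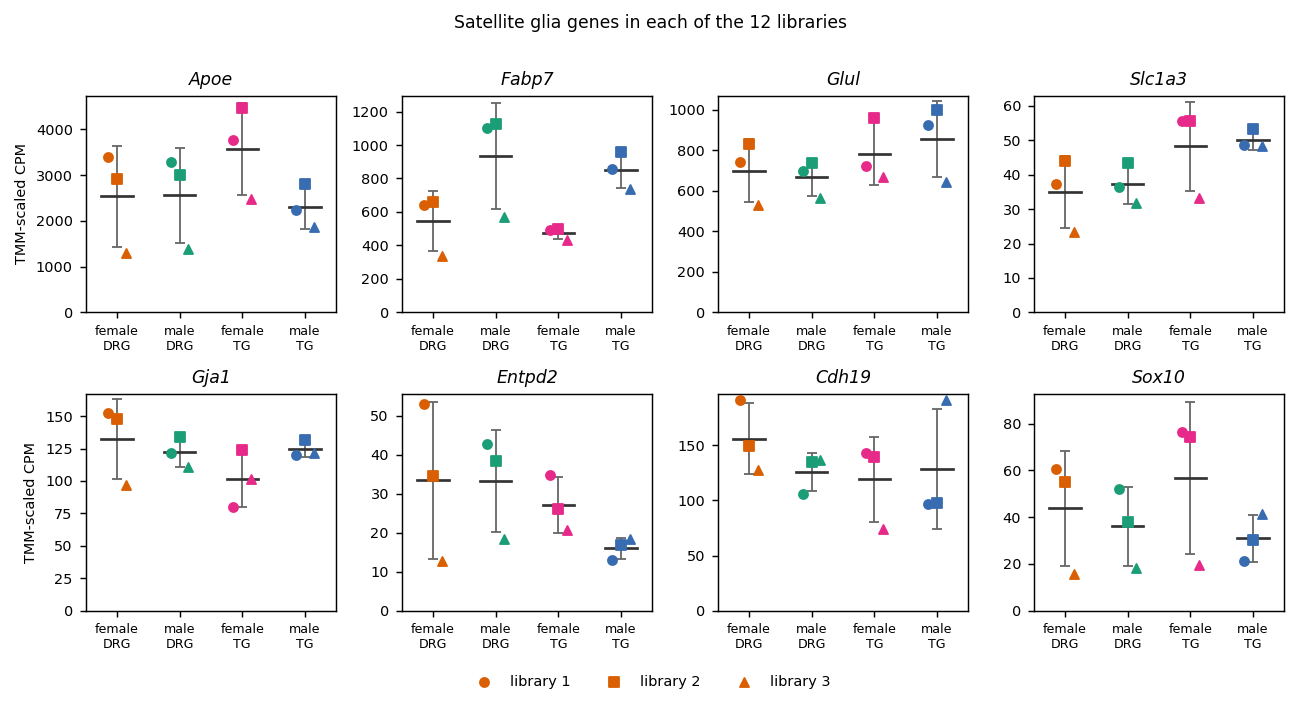
TMM-scaled CPM of each satellite glia gene (vertical axes, starting at 0) in the 4 groups (horizontal axes), with a point per library, its shape giving the library number, and the bar and whiskers giving the mean and SD of 3 libraries. Libraries numbered 3 lie lowest in all 4 groups for Apoe, Fabp7, Glul and Slc1a3, and Fabp7 lies higher in males in TG without overlap.

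The lipid genes came first by level. Apoe (mm9 chr7:20281458-20284515, minus strand) encodes apolipoprotein E, which carries lipids between cells. It stood at 3400.5, 2909 and 1294 CPM in female DRG libraries 1 to 3 and at 3281, 3007 and 1375 CPM in male DRG. In TG it stood at 3762, 4460.3 and 2472 CPM in females and at 2233, 2806 and 1869.9 CPM in males. The ranges of the ganglia overlapped, and the lowest library was number 3 in all 4 groups. Fabp7 (chr10:57504687-57508256, plus strand) encodes a fatty acid binding protein of glial cells. It stood at 644, 659 and 339.5 CPM in female DRG, at 1104, 1129 and 569 CPM in male DRG, at 492, 495 and 435 CPM in female TG and at 856, 957 and 739 CPM in male TG. The sexes did not overlap in TG, and in DRG the lowest male library lay inside the female range.

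The glutamate genes differed in level, and Slc1a3 alone lay mostly higher in TG. Slc1a3 (chr15:8584124-8660764, minus strand) encodes GLAST, a transporter that clears glutamate from around the neuron. It stood at 37.3, 43.9 and 23.4 CPM in female DRG, at 36.3, 43.5 and 31.9 CPM in male DRG, at 55.6, 55.7 and 33.3 CPM in female TG and at 48.5, 53.4 and 48.2 CPM in male TG. All TG libraries but female TG 3 lay above every DRG library. Glul (chr1:155747074-155756853, plus strand) encodes glutamine synthetase, which converts glutamate to glutamine. It stood at 742, 829 and 528 CPM in female DRG, at 699, 735 and 562 CPM in male DRG, at 722, 959 and 666 CPM in female TG and at 923, 1000.5 and 644 CPM in male TG, and the groups overlapped.

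Gja1 and Entpd2 serve exchange between cells. Gja1 (chr10:56097106-56110225, plus strand) encodes connexin 43, a subunit of gap junctions. Its levels were even, at 153, 148 and 97.0 CPM in female DRG, 122, 134 and 111 CPM in male DRG, 79.9, 124 and 101 CPM in female TG and 120.1, 131 and 122 CPM in male TG. Entpd2 (chr2:25251394-25256843, plus strand) encodes an enzyme that breaks down ATP outside the cell. It stood at 53.0, 34.4 and 12.7 CPM in female DRG, at 42.8, 38.5 and 18.4 CPM in male DRG, at 34.8, 26.0 and 20.6 CPM in female TG and at 12.9, 16.7 and 18.3 CPM in male TG. Female TG lay above male TG in every library, and in DRG the sexes overlapped.

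Sox10 and Cdh19 mark the lineage. Sox10 (chr15:78985343-78994920, minus strand) stood at 60.6, 55.2 and 15.6 CPM in female DRG, at 51.9, 38.1 and 18.0 CPM in male DRG, at 76.4, 74.4 and 19.4 CPM in female TG and at 21.2, 30.4 and 41.3 CPM in male TG. Outside male TG the third library of each group was far below the other two, whereas in male TG it was the highest. Cdh19 (chr1:112785772-112873949, minus strand) encodes a type II cadherin of neural crest derived glia, an adhesion protein. It stood at 191, 149.8 and 127 CPM in female DRG, at 106, 135 and 137 CPM in male DRG, at 143, 139.7 and 74.5 CPM in female TG and at 96.7, 97.6 and 191 CPM in male TG. The highest male TG library thus stood level with the highest female DRG library, and the 4 groups overlapped.

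No member differed between TG and DRG at an adjusted p under 0.05. With edgeR's quasi-likelihood test over the 12 libraries and Benjamini-Hochberg adjustment, 0 of 8 members were called, beside 0.964% of the 14829 genes tested. DESeq2 also called 0 of 8, beside 2.25% of genes. The log2 change, TG minus DRG, was above 0 for 4 members and below 0 for 4, with a median of -0.05 over the members and -0.01 over all genes. Libraries of the ganglia did not overlap for 0 members, beside 1.36% of genes. At an unadjusted p under 0.05 there were 2 members, beside 8.83% of all genes. Slc1a3 averaged 49.1 ± 8.41 CPM in TG against 36.1 ± 7.71 in DRG (SD, n = 6), a log2 change of 0.45 (95% interval 0.005 to 0.89, edgeR adjusted p = 0.555). Entpd2 averaged 21.6 ± 7.82 CPM in TG against 33.3 ± 15.2 in DRG, a log2 change of -0.68 (interval -1.32 to -0.03, edgeR adjusted p = 0.535). For the other 6 the intervals included 0. They bounded the ratio of TG to DRG to 0.778 to 1.63 for Apoe, 0.658 to 1.20 for Fabp7, 0.922 to 1.56 for Glul, 0.686 to 1.14 for Gja1, 0.640 to 1.22 for Cdh19 and 0.621 to 1.80 for Sox10. Changes of 2-fold in either direction therefore lay outside the intervals of these 6 genes. Without the libraries numbered 3, 2 of 8 members were called, beside 5.47% of genes. These were Fabp7, lower in TG by a log2 change of -0.35 (edgeR adjusted p = 0.0218), and Entpd2, at -0.99 (edgeR adjusted p = 0.0190). In a bulk sample, fewer glial cells and less RNA per cell cannot be told apart.

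**Figure D2:**
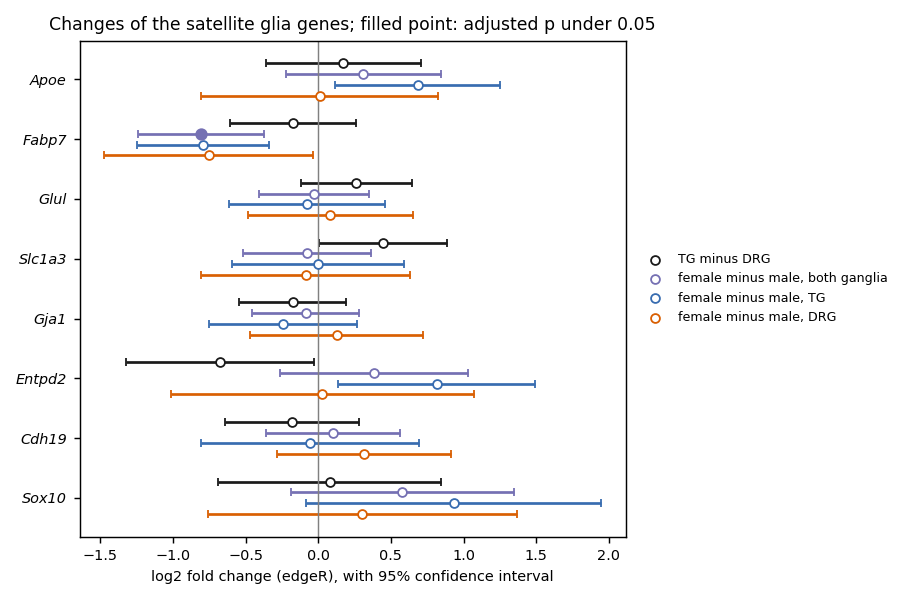
Log2 fold change of each satellite glia gene from edgeR (horizontal axis) with its 95% confidence interval, for TG minus DRG, female minus male over both ganglia, and female minus male in TG and in DRG. A filled point marks an adjusted p under 0.05, and Fabp7 in the sex comparison over both ganglia is the only filled point, at -0.81.

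Fabp7 was the member that differed between the sexes. Over both ganglia it averaged 511 ± 123 CPM in females against 892 ± 216 in males (SD, n = 6), and the fitted level was 1.75-fold higher in males. The log2 change, female minus male, was -0.81 ± 0.21 (SE), with an edgeR adjusted p of 0.0302, and the mean of the males was the higher in both ganglia. It was the 1 of 8 members called, beside 7.88% of the 14829 genes tested, or 5.5% called higher in males, so a share of this size was close to that of all genes. The share of all genes was itself unstable, at 0.0472% (7 genes) with the trend on GC content and length removed and 0.0337% (5 genes) with the percent of reads outside genes as a covariate. It fell to 6 genes without female TG 2, male DRG 2, male TG 1 or male TG 2, to 9 without female TG 1, to 31 without male DRG 1, to 110 without female DRG 2 and to 329 without female DRG 1, and rose to 2487 without female DRG 3, 2620 without female TG 3 and 1792 without male TG 3. The other 7 members gave log2 changes between -0.09 and 0.58, all with an edgeR adjusted p of 0.339 or more. The median over the members was 0.04, and 0.01 over all genes. At an unadjusted p under 0.05 there was 1 member, beside 26% of genes, and for 0 members did the libraries of the sexes not overlap, beside 2.73%.

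The Fabp7 call rested on many libraries at once and on the scaling. It was lost when any 1 of 7 libraries was left out: the edgeR adjusted p was 0.0589 without female DRG 2, 0.0761 without female TG 1, 0.0854 without female TG 2, 0.0796 without male DRG 1, 0.0981 without male DRG 2, 0.0914 without male TG 1 and 0.0906 without male TG 2. In each of these 7 the log2 change stayed between -0.88 and -0.73. With library totals in place of TMM it was -0.61 (edgeR adjusted p = 0.0667). When the trend of each library with GC content and transcript length was taken out, the direction turned, to 0.41 (edgeR adjusted p = 0.564). Fabp7 has a short, GC-poor transcript of 1250 bases and 40.4% GC. Reads outside genes made up 43.5 to 50.4% in female libraries and 37.6 to 47.9% in male libraries, and with this percent as a covariate the change was -0.67 (edgeR adjusted p = 1).

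Taken by ganglion, the sex comparisons called no member. In TG, 0 of 8 were called, beside 0.0357% of the 14009 genes tested, and in DRG 0 of 8, beside 0.0358% of 13963. At an unadjusted p under 0.05 there were 3 members in TG, where 20.7% of all genes lay under it, and 1 in DRG, where 11.8% did. In TG, DESeq2 called 1 member, Fabp7 (DESeq2 adjusted p of 0.00658), beside 5.38% of genes. There Fabp7 averaged 474 ± 33.9 CPM in females against 850.2 ± 109 in males (SD, n = 3), a log2 change of -0.79 (edgeR adjusted p = 0.154). Apoe in TG averaged 3565 ± 1009 CPM in females against 2303 ± 472 in males, a log2 change of 0.69 (edgeR adjusted p = 0.191). Entpd2 in TG averaged 27.1 ± 7.20 CPM in females against 16.0 ± 2.75 in males, a log2 change of 0.81 (edgeR adjusted p = 0.193). In DRG, Fabp7 averaged 547 ± 180.0 CPM in females against 934 ± 316 in males, a log2 change of -0.75 (edgeR adjusted p = 0.402). Libraries of the sexes did not overlap for 2 members in TG, Fabp7 and Entpd2, beside 23.8% of genes, and for 0 in DRG, beside 17.5%. The study's cutoffs were a fold change above 2, an unadjusted p under 0.05 and an RPKM above 1. They were applied here to edgeR values, whereas the study used DESeq and its own RPKM. With them 0 of 8 members passed in either ganglion, beside 7.2% of genes in TG and 4.86% in DRG.

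The count in TG depended on 1 library. Without female TG 3, 4 of 8 members were called, beside 23.6% of genes. Apoe, Sox10 and Entpd2 were then higher in females, by log2 changes of 0.84, 1.29 and 0.93 (edgeR adjusted p of 0.0149, 0.0104 and 0.0340), and Fabp7 was higher in males, with a log2 change of -0.78 (edgeR adjusted p = 0.0154). With libraries 1 and 2 of each group alone, 5 members were called over both ganglia beside 36.4% of genes, 5 in TG beside 44.1% and 1 in DRG beside 10.1%. The difference in the sex effect between TG and DRG was tested itself, and edgeR called 0 of 8 members and 0% of the 14829 genes. At an unadjusted p under 0.05 there were 0 members and 292 genes, 1.97% of those tested. The interval of this difference was wide, for Sox10 from -0.94 to 2.13 and for Fabp7 from -0.94 to 0.79 on the log2 scale.

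From library to library, the satellite glia genes mostly deviated in the same direction, and this depended on the libraries numbered 3. After the mean of each group was removed from the log2 CPM, 27 of the 28 pairs of members had a positive Pearson's r over the 12 libraries, with a median of 0.707, whereas the median over all pairs of tested genes was 0.0117. An exact permutation of libraries within groups (1296 arrangements, two-sided, smallest possible p 0.000772) with Benjamini-Hochberg adjustment over the 28 pairs called 6. The permutation treats the libraries of a group as exchangeable, although those numbered 3 stood apart. With the mean of each replicate number within a ganglion removed as well (the replicate block), 13 of 28 pairs were positive. The median r was then -0.03, a value with no test. This block treats female and male libraries of the same number as matched, which was not shown, and leaves few degrees of freedom. The pairs ran from -0.09 for Glul with Cdh19 to 0.95 for Fabp7 with Apoe. All 6 called pairs were positive and had a positive r in each ganglion and after the 2 farthest libraries were left out. With the replicate block most of them turned negative. There r was -0.46 for Fabp7 with Apoe, -0.17 for Fabp7 with Glul and -0.51 for Fabp7 with Slc1a3. It was -0.57 for Glul with Apoe and -0.27 for Glul with Slc1a3, while Sox10 with Entpd2 stayed positive at 0.78. Of all relations between a member and any other gene, 2.09% were positive with an exact p as small as that of the called pairs. At an unadjusted exact p under 0.05 there were 14 of 28 pairs, all of them positive. Of the relations with any other gene, 9.21% were under it with a positive r, and negative ones are not in this share.

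The called pairs linked Fabp7, Apoe, Glul and Slc1a3, and apart from these Sox10 with Entpd2, but r did not separate the genes this way. Of the pairs across, none was called, yet r was 0.87 for Slc1a3 with Sox10 and for Apoe with Entpd2. It was 0.86 for Fabp7 with Entpd2 and 0.84 for Apoe with Sox10, and lowest for Glul with Entpd2 at 0.51. Fabp7 with Apoe had r = 0.95 (Spearman's rho 0.85, exact permutation p = 0.00540, adjusted 0.0302), and r = 0.87 without the 2 farthest libraries, female DRG 3 and male DRG 3. Fabp7 with Glul had r = 0.79 (rho 0.73, exact permutation p = 0.000772, adjusted 0.00720), and 0.72 without these 2 libraries. Sox10 with Entpd2 had r = 0.87 (rho 0.88, exact permutation p = 0.000772, adjusted 0.00720). Fabp7 with Slc1a3 (r = 0.75), Glul with Apoe (r = 0.84) and Glul with Slc1a3 (r = 0.75) were also called, with adjusted exact permutation p of 0.00720, 0.0270 and 0.0324. Slc1a3 with Apoe was not called (r = 0.83, adjusted exact permutation p = 0.0670). The mean of the 10 other genes of glutamate and glutamine handling had r = -0.02 with Fabp7 and 0.04 with Apoe.

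**Figure D3:**
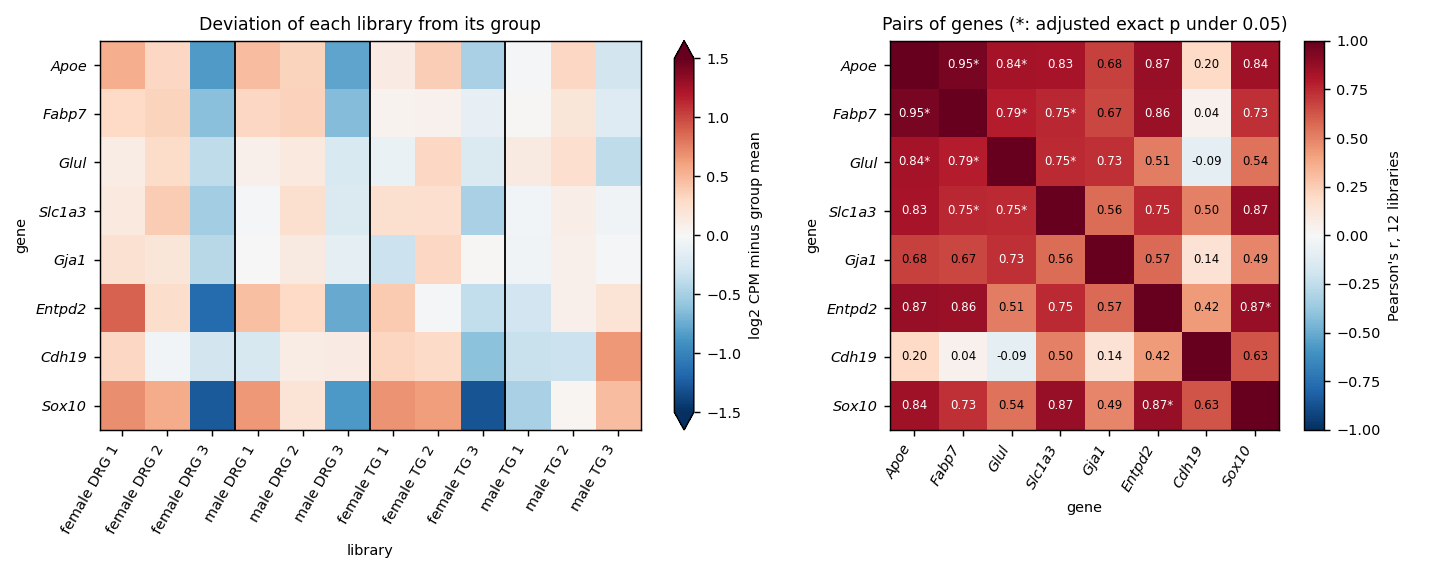
Left, log2 CPM of each gene (rows) in each library (columns) minus the mean of its group, from blue (lower) to red (higher), with black lines between groups. Right, Pearson's r of each pair over the 12 libraries, with an asterisk at an adjusted exact permutation p under 0.05, where 27 of 28 pairs are positive and the row of Cdh19 is pale.

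In the main setting, Cdh19 correlated least with the other members. Its 7 pairs had a median r of 0.197 and at most 0.628 (with Sox10), while the 21 pairs of the other members had a median of 0.748 and none under 0.492. This depended on the setting. With the trend on GC content and length removed, r of Cdh19 ran from 0.45 with Glul to 0.85 with Fabp7. With the replicate block it ran from -0.62 with Fabp7 to 0.98 with Apoe. The pairs also looked different in the ganglia. Over the 6 DRG libraries all 28 pairs were positive with a median r of 0.894, and over the 6 TG libraries 21 were positive with a median of 0.453, where Gja1 with Entpd2 was lowest at -0.43. The difference between ganglia was not tested.

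The shared movement was far smaller without the libraries numbered 3. The lowest library of a group was number 3 in 26 of the 32 combinations of gene and group, in 4 of 4 groups for Apoe, Fabp7, Glul and Slc1a3, 3 of 4 for Sox10 and Entpd2, and 2 of 4 for Cdh19 and Gja1. The median member of library 3 lay below the mean of libraries 1 and 2 by a log2 difference of -0.86 in female DRG, -0.64 in female TG, -0.66 in male DRG and -0.06 in male TG. Over the 8 libraries numbered 1 and 2, 19 of 28 pairs were positive and the median r was 0.193. There Fabp7 with Apoe had r = 0.54 and Sox10 with Entpd2 r = 0.61, as values with no test, and the 4 libraries numbered 3 are too few for an r of their own. Leaving out 1 library moved the count of called pairs to 3 without female DRG 3, male DRG 3, male TG 1 or male TG 2, to 12 without female TG 1 and to 10 without female TG 3. Without female DRG 1 and female TG 3 together, 0 pairs were called, although 25 were positive and the median r was 0.734. Leaving libraries out raised the smallest possible permutation p, so these counts of called pairs are not directly comparable with the main setting. With group means kept in, 2 pairs were called and the median r was 0.362.

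Other measures of the libraries moved with the members, and apart from the GC trend their part in the shared movement was not tested. In each library the 3653 genes richest in GC were set against the 3653 poorest in GC by their mean log2 CPM. This gap correlated with every member, from r = 0.48 for Cdh19 to 0.94 for Sox10. The gap was lower in library 3 than in library 1 or 2 in female DRG, male DRG and female TG, at group-centred values of -0.55, -0.46 and -0.71. With the trend on GC content and length taken out of each library, 28 of 28 pairs were positive, 8 were called and the median r was 0.804. The mean of the sensory neuron list ran the other way for all 8 members, from -0.46 for Cdh19 to -0.95 for Entpd2. No relation with the GC gap or the neuron list passed an adjusted exact permutation p of 0.05 over the 128 relations computed.

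**Figure D4:**
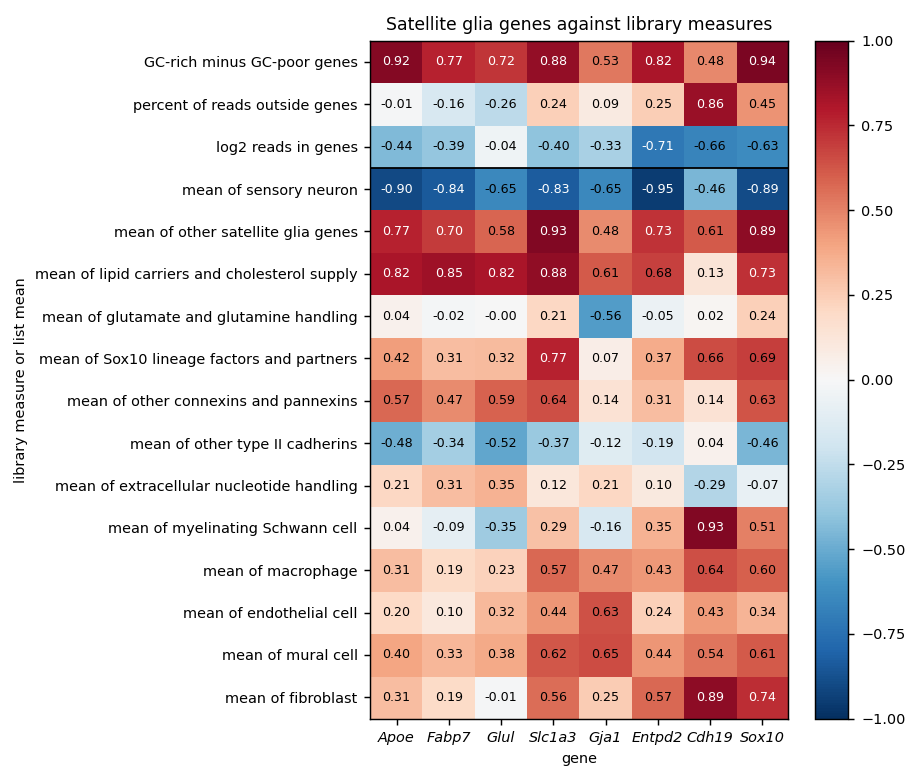
Pearson's r over the 12 libraries, after group means were removed, of each satellite glia gene (columns) with library measures (upper 3 rows) and with the mean of other gene lists (lower rows). The row of the sensory neuron list is negative for all 8 genes, and Cdh19 reaches 0.93 with the myelinating Schwann cell list.

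Cdh19 had its highest r with other lists, at 0.93 with the mean of the myelinating Schwann cell genes and 0.89 with the fibroblast genes, which did not pass after adjustment (adjusted exact permutation p of 0.123 and 0.129). It had r = 0.86 with the percent of reads outside genes. With the Schwann cell mean the other 7 members had r between -0.35 and 0.51 over the 12 libraries, although Entpd2 and Sox10 reached 0.84 and 0.79 over the 6 TG libraries. With the fibroblast mean Sox10 had r = 0.74 and Entpd2 0.57. The list of lipid carriers and cholesterol supply was the 1 list with relations past the adjusted threshold. Its mean had r = 0.85 with Fabp7 and 0.88 with Slc1a3 (both exact permutation p = 0.000772, the smallest possible, adjusted 0.0494). The 10 other satellite glia genes had a positive r with all 8 members, from 0.48 for Gja1 to 0.93 for Slc1a3.

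The genes nearest to each member in pattern were taken as the 3 with the highest r over the 12 libraries, after group means were removed, and are given as a description. For Apoe these were Gpr37l1, a glial receptor gene (0.99), Ebpl (0.99) and Rpph1 (0.98). For Fabp7 they were Polr2g, Cdkn2d and Mmd2 (each 0.98), and for Glul the fatty acid elongase gene Elovl2 (0.99), the glucose transporter gene Slc2a1 (0.97) and Cd63 (0.97). For Slc1a3 they were the lipoprotein receptor gene Vldlr, Sparc and Sox8, a relative of Sox10 (each 0.98). For Sox10 they were Pxn, Celsr2 and Vwa1 (each 0.99), and for Entpd2 Mex3c (0.99), Rhbdf1 (0.98) and Efnb1 (0.97). Cdh19 was nearest to Arap1, Gm13845 and Atxn2 (each 0.97), and Gja1 to 1700029J07Rik, Kifc2 and Prss23 (0.93, 0.92 and 0.915). No member stood among the 3 nearest genes of another. Apoe was the nearest member to Fabp7, and 0.182% of all genes had a higher r with Fabp7. This was the pair with the highest r of all. At the other end, 57.5% of genes had a higher r with Glul than Cdh19 had.

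The pathways around the members were read in the TG against DRG comparison. Of 10 other satellite glia genes, 0 were called and 5 lay above 0, with a median log2 change of -0.01. The smallest p was that of Ptprz1, a receptor phosphatase gene, with 317 CPM in TG against 265 in DRG (edgeR adjusted p = 0.778). Of 10 genes of glutamate and glutamine handling, 0 were called. Slc38a1, a glutamine transporter gene, was nearest, with 142 CPM in TG against 86.4 in DRG, a log2 change of 0.71 (edgeR adjusted p = 0.0559). Of 16 genes of lipid carriers and cholesterol supply, 15 were tested and 0 called, with a median log2 change of -0.31. Fabp4, a relative of Fabp7, had the smallest p, with 1.47 CPM in TG against 7.53 in DRG (edgeR adjusted p = 0.239).

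Of 10 tested connexin and pannexin genes other than Gja1, 1 was called. Panx2, which encodes a large-pore channel subunit, was higher in TG, with 19.8 CPM against 8.39 CPM in DRG, a log2 change of 1.20 ± 0.28 (SE, edgeR adjusted p = 0.0437). Of 13 tested Sox10 lineage factors and partners, 0 were called, and the smallest p was that of Mitf, a pigment cell factor (edgeR adjusted p = 0.773). The cadherin relatives of Cdh19 gave 0 of 10, with Cdh12 nearest at 5.84 CPM in TG against 16.4 in DRG (edgeR adjusted p = 0.134). Genes of extracellular nucleotide handling, the setting of Entpd2, gave 0 of 11. Adk, which encodes adenosine kinase, had 286 CPM in TG against 491 in DRG, a log2 change of -0.76 (edgeR adjusted p = 0.195). In the cell type lists, which could move with a glial signal, 0 genes of any list were called. The genes with the smallest p there were Scn10a of the neurons, with a log2 change of -0.56 (edgeR adjusted p = 0.156), Pllp of Schwann cells at 0.78 (0.261), C1qb of macrophages at 0.56 (0.569), Kdr of endothelium at 0.48 (0.614), Rgs5 of mural cells at -0.60 (0.182) and Col6a1 of fibroblasts at -1.39 (0.0713).

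In the sex comparison over both ganglia, 7 of 15 tested lipid genes were called, beside 7.88% of all genes. With the GC and length trend removed, or without any 1 of female TG 2, male DRG 2, male TG 1 and male TG 2, at most 7 genes of the whole table were called, so most of the calls over all lists in this comparison were lost. Among them Apod, Lrp1 and Srebf2 were higher in females and Fabp3, Fabp5 and Insig1 higher in males, all chosen here after their values were seen. Fabp3 and Fabp5, like Fabp7, encode fatty acid binding proteins, and their log2 changes were -1.07 and -0.79 (edgeR adjusted p of 0.0246 and 0.0425). Of the 10 other satellite glia genes, S100b was called, higher in males by a log2 change of -1.08 (edgeR adjusted p = 0.0229), also named after its value was seen. Sox8 of the Sox10 lineage list was higher in females and Adk of the nucleotide list higher in males, by log2 changes of 1.40 and -0.97 (edgeR adjusted p of 0.0414 and 0.0257), and both were picked out for these values. Most genes of 5 other cell types lay above 0, on the female side, in 11 of 12 for myelinating Schwann cells, 10 of 11 for macrophages, 8 of 8 for endothelium, 6 of 7 for mural cells and 8 of 8 for fibroblasts. The median log2 change, female minus male, was 0.65 for myelinating Schwann cell genes with 0 of 12 called, 0.92 for macrophage genes with 3 of 11 called, 0.65 for endothelial genes with 2 of 8 called, 0.79 for mural cell genes with 2 of 7 called and 0.75 for fibroblast genes with 2 of 8 called, and for the sensory neuron genes it was -0.03 with 0 of 14 called. The red blood cell list had 1 of 2 above 0 and a median of -0.11, and the Sox10 lineage list had 9 of 13 above 0 and a median of 0.57. The members went both ways, with 4 of 8 above 0, from Fabp7 at -0.81 to Sox10 at 0.58, and no test compared the lists.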

How the data were processed

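The 12 libraries were RNase H ribosomal RNA-depleted, strand-marked (dUTP) and read as single 50-base reads. Per the labels and the methods of the study, the authors aligned with TopHat2 to mm9 and deposited HTSeq-count read counts per gene; tool versions, annotation and strand setting are not given in the sources used here. The 5 summary lines of each file, which name no gene, were left out of the library sizes. Groups came from the labels. Counts were fitted in edgeR 4.0.16 (R 4.3.3, quasi-likelihood F-test, TMM, filterByExpr, Benjamini-Hochberg over all genes tested), with DESeq2 1.42.0 as an alternative, and the scripts were tested on simulated data. RPKM used exon lengths from GENCODE M1 on mm9, in which 21657 of 22609 genes (95.8%) were matched by symbol. Correlations used log2 CPM with a prior count of 2. Named genes are all 8 members, of each list those called in TG against DRG or else the 1 with the smallest p, and the 3 nearest to each member. Members and lists were chosen with earlier results of these data known. Some genes that this rule names are not reported here. The depth and counting precision of each library are given with the results.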

Additional observations from a re-analysis of the deposited data

Results flagged for a closer look

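Slc1a3 in female TG 3 stood apart from the other TG libraries. It was the lowest of the 6 TG libraries at 33.3 CPM, while the other 5 lay between 48.2 and 55.7 CPM, and its gap to the nearest of them on the log2 scale took up 0.718 of the whole range, above Dixon's 95% critical value of 0.625. This was the 1 result set apart in 16 sets of 6 libraries (8 genes in each ganglion), and chance alone sets apart about 1 in 20 such sets. The cause was not tested.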

How the results depend on the processing

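Of 736 recomputed log2 changes of members, 626 kept their direction and side of the threshold, 85 turned in sign, 16 passed the threshold and 9 lost it; the cause was not tested. The deepest library held 15396090 reads in genes, and 3 libraries a group limit the precision. Counts of called members moved as follows. With libraries 1 and 2 only, TG against DRG gave 2 beside 5.47% of genes. The sexes gave 5 in TG beside 44.1%, 1 in DRG beside 10.1% and 5 over both ganglia beside 36.4%. DESeq2 gave 1 in TG beside 5.38%. Over both ganglia 0 were called with library totals, beside 9.57% of genes. The same held with the GC-length correction and with that and the replicate block (0.0472% each), and with percent outside genes as a covariate (0.0337%). Leaving out 1 library gave 0 to 4 in TG, 0 to 1 over both ganglia and 3 to 12 called pairs. Pairs fell to 2 with group means kept and to 0 without female DRG 1 and female TG 3, a pair of libraries left out together for the pairs only after seeing the data, as was the value over libraries 1 and 2. With libraries left out, the smallest possible permutation p was higher, so these counts of pairs are not directly comparable.

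The replicate numbers were not taken to pair the samples, since correlations of same-numbered libraries were not over 0.1 throughout. They ran from -0.10 to 0.01 between the sexes in TG and from 0.03 to 0.22 elsewhere, where libraries numbered 3 correlated best with each other, at 0.168, 0.212 and 0.216. The replicate block was sex and number for TG against DRG and the interaction, and number for the sex comparisons. For the pairs it was ganglion and number. The block gave 0, 0, 0, 1 and 0 called members in the 5 comparisons. It called 562 genes in place of 143 for TG against DRG and 1592 in place of 1169 for sex over both ganglia. Over the pairs the median r was -0.03, with 13 of them positive. In DRG the block turned the sex changes of Apoe to -0.022 and of Entpd2 to -0.12.

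Log2 changes that turned in sign were, for TG minus DRG, Sox10 at -0.21 with libraries 1 and 2 only, -0.32 with the GC-length correction and -0.20 with that and the block, Fabp7 at 0.052 with both, and Cdh19 at 0.029 without female DRG 1 and female TG 3. For female minus male in TG, library totals gave Glul 0.052, Slc1a3 0.12 and Cdh19 0.051, no filter gave Slc1a3 0.0015, libraries 1 and 2 gave Slc1a3 0.13 and Cdh19 0.55, the GC-length correction gave Fabp7 0.36, Slc1a3 0.068, Cdh19 0.66 and Gja1 0.19, and with the block also Fabp7 0.32, Glul 0.0066, Slc1a3 0.038, Cdh19 0.66 and Gja1 0.16. In DRG, Slc1a3 gave 0.11 with library totals and 0.062 with libraries 1 and 2, and Fabp7 0.48 with the GC-length correction and 0.27 with the block also, where Entpd2 gave -0.0098. Over both ganglia, library totals gave Glul 0.16, Slc1a3 0.12 and Gja1 0.10, DESeq2 and its size factors gave Glul 0.0040 each, libraries 1 and 2 gave Glul 0.0020 and Slc1a3 0.11, the GC-length correction gave Fabp7 0.41, Glul 0.16 and Gja1 0.38, with the block also Fabp7 0.30, Glul 0.16 and Gja1 0.35, the covariate gave Glul 0.13, Sox10 -0.25 and Cdh19 -0.59, and without female DRG 1 and female TG 3 Glul gave 0.00096 and Slc1a3 0.0031. For the interaction, Sox10 gave -0.16 with the GC-length correction and -0.031 with the block also, and Fabp7 0.10 with both.

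Leaving out 1 library at a time, the log2 change ran from -0.12 to 0.29 for Sox10 in TG against DRG. For sex in TG it ran from -0.26 to 0.35 for Cdh19, -0.30 to 0.044 for Glul and -0.17 to 0.15 for Slc1a3. For sex in DRG it ran from -0.28 to 0.32 for Apoe, -0.49 to 0.42 for Entpd2, -0.054 to 0.25 for Glul, -0.28 to 0.14 for Slc1a3 and -0.016 to 0.71 for Sox10. Over both ganglia it ran from -0.17 to 0.0026 for Gja1, -0.12 to 0.054 for Glul and -0.18 to 0.035 for Slc1a3. For the interaction it ran from -0.59 to 0.031 for Cdh19, -0.32 to 0.19 for Fabp7 and -0.18 to 0.25 for Slc1a3.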
